A study of Mus musculus with 18 samples.

Results

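A set of 39 interferon-stimulated genes was followed through dendritic cells (DCs) of the mouse intestine and its draining lymph nodes. The genes were fixed by name as a list of type I interferon-induced genes and found in the count table by Ensembl identifier. All 39 were among the 54232 genes counted, and all 39 passed the filter on low counts that left 17074 genes for testing. The libraries were made from sorted DCs of C57BL/6J mice labelled CD11a KO, CD11a being the alpha subunit of LFA-1, an integrin of leukocytes. DCs positive for CD11b alone (CD11b+), for CD103 alone (CD103+) or for both markers (double-positive) were each taken from the small intestinal lamina propria (LP) and from intestinal lymph nodes (LN), with 3 libraries in each of the 6 groups. The genotype was shared by all groups and no wild-type library was analysed here, so the comparisons below are of tissues and subsets and not of the knockout. The study's protocols describe mice at steady state and mice given Salmonella, and the labels of these libraries do not say which were used, nor do they give the age of the animals or whether cells of several animals were pooled.

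Type I interferons bind the receptor pair IFNAR1 and IFNAR2 and activate the kinases JAK1 and TYK2, which phosphorylate STAT proteins. STAT2 and IRF9 act within the complex ISGF3, which binds the interferon-stimulated response element (ISRE) in the promoters of its target genes. The products block viral entry, translation and replication, sense foreign nucleic acid, or feed back on the pathway, and DCs use type I interferon signals when they mature and prime T cells.

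The ISRE is the sequence that the members of such a list are known for, so promoter windows running from 250 bases before to 50 bases after each start site were taken from the RefSeq table (GRCm38.p6) and searched for its core, GAAANNGAAA, on either strand. On the opposite strand the core reads TTTCNNTTTC. Of the 39 members, 29 had a window in the table, and Ifi27l2a, Oas2, Usp18, Mx2, Rtp4, Parp14, Dhx58, Parp9, Mx1 and Zbp1 did not. The core was found in 15 of the 29 (51.7%), against 1074 of all 26996 genes with a window (3.98%). It was held by 11 of the 21 members with a window that were called changed between the tissues in at least 1 subset (52.4%) and by 4 of the 8 that were not (50%), so the letters were about as frequent in members that differed between tissues as in those that did not pass. Sequences around the core are shown for the 8 members with the largest tissue effects among those that hold it and were called, 5′ to 3′ on the gene's strand with the matches in capitals.

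Ifit1, chr19:34640760-34640838, plus strand, bases -129 to -51 from the start site: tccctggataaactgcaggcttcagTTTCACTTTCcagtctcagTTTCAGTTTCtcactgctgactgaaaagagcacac
Ifit3, chr19:34583348-34583441, plus strand, bases -181 to -88: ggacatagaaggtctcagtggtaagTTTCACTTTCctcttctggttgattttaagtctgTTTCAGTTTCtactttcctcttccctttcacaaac
Ifit3b, chr19:34607744-34607837, plus strand, bases -213 to -120: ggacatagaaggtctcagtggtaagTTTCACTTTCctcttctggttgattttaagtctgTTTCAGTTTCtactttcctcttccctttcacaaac
Oas3, chr5:120777700-120777759, minus strand, bases -100 to -41: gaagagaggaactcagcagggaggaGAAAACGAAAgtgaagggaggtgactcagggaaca
Oas1g, chr5:120887614-120887656, minus strand, bases -43 to -1: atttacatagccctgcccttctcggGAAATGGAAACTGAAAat
Isg15, chr4:156200850-156200921, minus strand, bases -103 to -32: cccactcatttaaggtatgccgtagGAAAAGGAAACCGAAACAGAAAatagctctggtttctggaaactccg
Rsad2, chr12:26456538-26456597, minus strand, bases -145 to -86: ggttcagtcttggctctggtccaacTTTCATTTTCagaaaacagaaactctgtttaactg
Ifitm3, chr7:141010716-141010742, minus strand, bases 3 to 29: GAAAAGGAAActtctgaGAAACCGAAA

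The windows of Ifit3 and Ifit3b were identical over all 94 bases shown, although their start sites lie at different distances from them. Isg15 had 3 matches and Oas1g 2 that overlapped one another, and Ifit1, Ifit3 and Ifit3b had 2 separate ones. Ifitm3 held both of its matches just after the start site. A match is a description of the letters and does not show that a factor binds there.

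**Figure D1:**
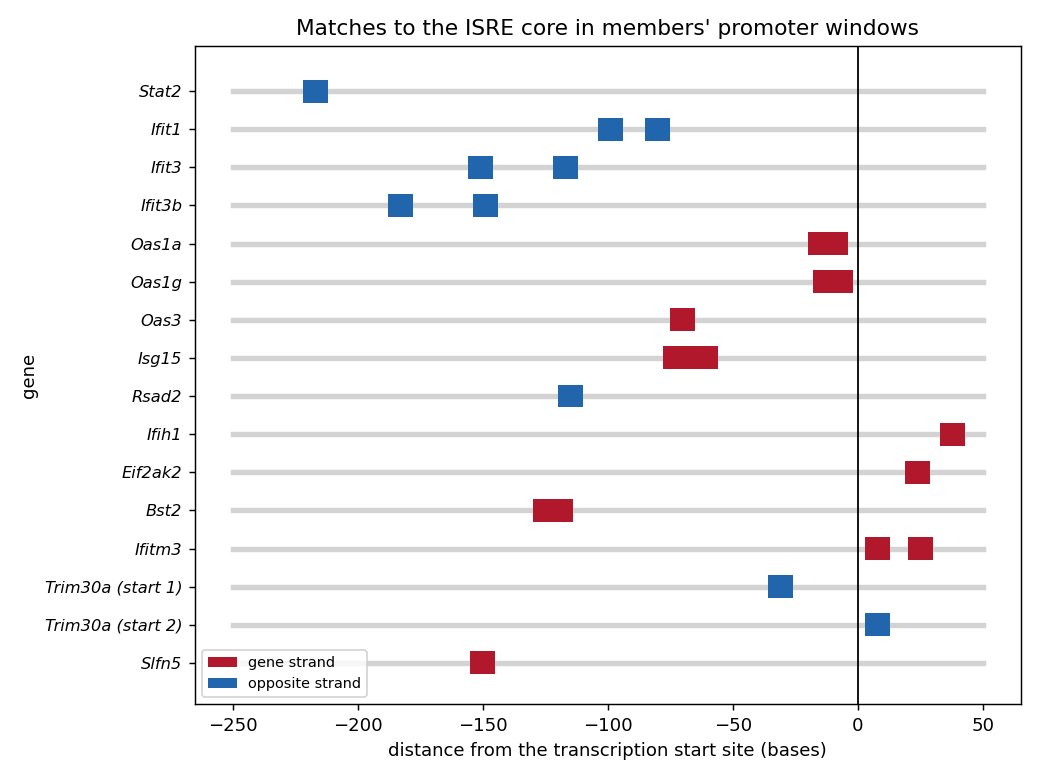
Positions of the ISRE core in the promoter windows of the 15 members that hold it, in bases from the transcription start site (0), with red boxes for the gene's strand and blue boxes for the opposite strand. Grey lines are the windows, Trim30a has 2 start sites, and Ifih1, Eif2ak2, Ifitm3 and Trim30a, at its other start site, have matches after the start site.

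The libraries held between 23574292 and 46901985 counts. Itgal, which encodes CD11a, was read in every library at 6.45 to 26.6 CPM (CPM stands for counts scaled to library size, here after TMM), so counts per gene did not show its loss. The 5 DC genes checked summed to 19000 to 77700 CPM in every library, most of it from Cd74 and H2-Ab1 (means of 14400 and 3580 CPM in LN CD103+ DCs). Itgax averaged 393 CPM in LP and 86.5 in LN CD103+ DCs, and Flt3 624 and 1030. The 6 genes of type 1 conventional DCs, which include Irf8 and Tlr3, summed to 7730 to 8240 CPM in LP CD103+ DCs against 257 to 317 in the other LP subsets. In LN the same genes summed to 1990 to 2060 CPM in CD103+, 939 to 1120 in double-positive and 580 to 642 in CD11b+ DCs. Irf8 alone averaged 1620 CPM in LN CD103+ DCs. Irf8, Xcr1, Clec9a and Cadm1 were highest there among the LN subsets, but Tlr3 and Batf3 were not. Tlr3 averaged 8.65 CPM in LN CD103+, 22.2 in LN CD11b+ and 18.6 in LN double-positive DCs. Batf3 averaged 156 in LN CD103+ and 183 in LN double-positive DCs. By these sums alone, the sorted subsets were less unlike in LN than in LP. The 4 genes of type 2 conventional DCs summed to 640 to 832 CPM in LP CD11b+, 658 to 731 in LP double-positive and 11.5 to 12.3 in LP CD103+ DCs. In LN they summed to 608 to 965, 193 to 232 and 39.2 to 48.2 CPM in the same order. By those genes, double-positive and CD11b+ DCs were more unlike in LN than in LP. Itgae, which encodes CD103, was at 27.0 to 40.0 CPM in LN CD103+ and 41.1 to 49.1 in LN double-positive DCs, against 1240 to 1440 in LP CD103+ DCs. Every LP library held the Y-linked transcript Ddx3y and next to no Xist, and every LN library held Xist. LN CD11b+ replicate 3 and LN double-positive replicate 3 held both, with 58.0 and 52.2 CPM of Ddx3y. Sex of the animals and tissue therefore cannot be told apart, and the tissue results are also given without these 2 libraries.

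The list as a whole stood higher in the lymph node (the heat map of 39 genes in 18 libraries). The mean of log2(CPM + 0.5) over the members was 4.95 to 5.13 in LP CD11b+, 4.04 to 4.11 in LP CD103+ and 4.76 to 4.86 in LP double-positive libraries. In the lymph node it was 5.96 to 6.13 in CD11b+, 5.38 to 5.68 in CD103+ and 5.40 to 5.70 in double-positive libraries. LP CD103+ libraries were thus the lowest and LN CD11b+ libraries the highest, and the ranges of LN CD103+ and LN double-positive DCs overlapped. Leaving out Ifitm3 and Irf1, the members summed to 1320 to 1630 CPM in the LP libraries and 2720 to 3170 in the LN libraries. By group mean, 23 members were highest in LN CD11b+, 9 in LN double-positive, 4 in LN CD103+, 2 in LP CD103+ and 1 in LP CD11b+ DCs. The lowest group was LP CD103+ for 22 members and LP double-positive for 9. In bulk libraries, a smaller share of cells with a transcript and less transcript per cell cannot be told apart.

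**Figure D2:**
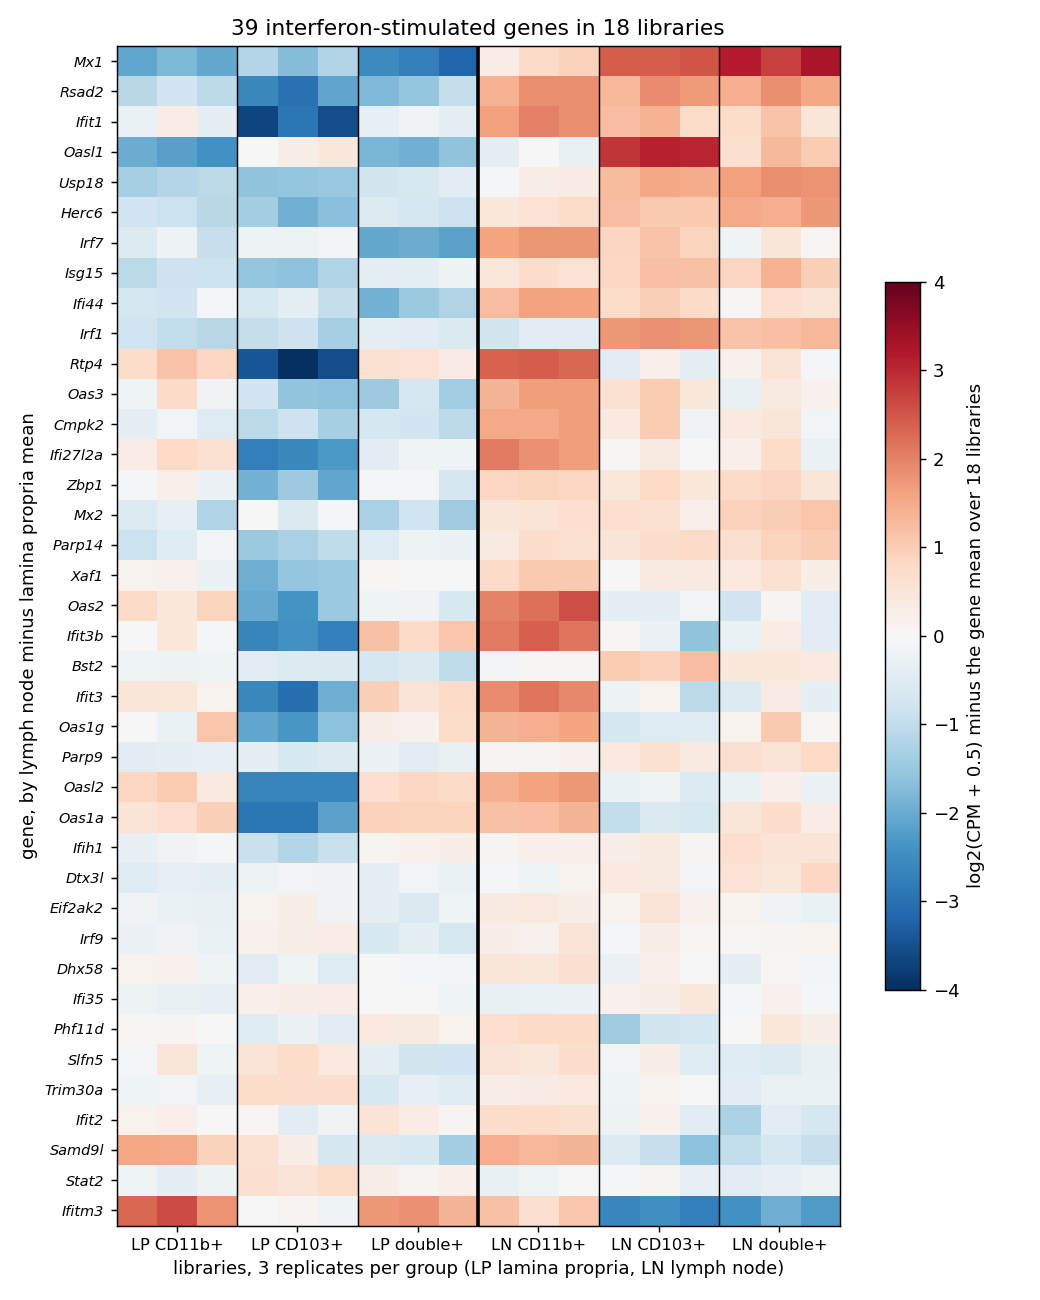
Log2(CPM + 0.5) of each member minus its mean over the 18 libraries (colour), with genes in rows and libraries in columns grouped by subset and tissue. The 3 libraries of LP CD103+ DCs are lowest for Ifit1, Rtp4, Oasl2 and Oas1a, the LN double-positive libraries are highest for Mx1, and Ifitm3 runs the other way.

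Levels differed widely between members. In RPKM, which is CPM per kilobase of exon, averaged over the 6 groups, Ifitm3 was highest at 765, followed by Irf1 at 162, Bst2 at 158 and Ifi27l2a at 156. Ifi44 was lowest at 0.913 RPKM, below Oas3 at 1.32 and Oas2 at 1.40. The ratio of the highest to the lowest group mean was 101 for Rtp4, 61.3 for Mx1, 50.3 for Ifit3b and 48.5 for Ifit1, and it was smallest for Ifi35. Some members share sequence with another gene, which matters because reads that fit 2 genes are lost under unique alignment. Of the 75-base positions of Ifit3, 41.1% were also in Ifit3b, and 35.7% of those of Ifit3b were in Ifit3. Oas1a and Oas1g shared 47.6% and 44.6% of theirs, Herc6 22.4% with Gm45193 and Rtp4 12.4% with Gm45338, and Parp9 and Dtx3l overlap in their exons, so the values of these genes are uncertain.

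The first question was how the same subset differed between its tissue and the node. A gene was called at an adjusted p under 0.01 and a fold change over 2 (edgeR's quasi-likelihood test, adjusted by Benjamini-Hochberg over 17074 genes). In CD11b+ DCs, 18 of the 39 members were higher in LN and 1 was lower, where 10.3% of all genes tested were higher and 4.93% lower. In CD103+ DCs, 25 were higher and 2 lower, against 19.8% and 15.1% of all genes. In double-positive DCs, 15 were higher and 3 lower, against 18.6% and 13.6%. The median log2 fold change of the members was 0.93, 1.96 and 0.55 in the 3 subsets, where that of all genes was 0.03, 0.04 and 0.07. Scaling by library totals moved the median of all genes by 0.14, -0.22 and -0.17 in these comparisons and left 12 higher and 5 lower members in double-positive DCs, so that 70.6% of the called members were higher in place of 83.3%. Without the 2 libraries that held both sex-linked transcripts, 17 members were higher and 1 lower in CD11b+ DCs, and 15 were higher and 2 lower in double-positive DCs. Of the members, 26 were higher in LN in at least 1 subset, 4 were lower in at least 1, and 10 were called in none.

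**Figure D3:**
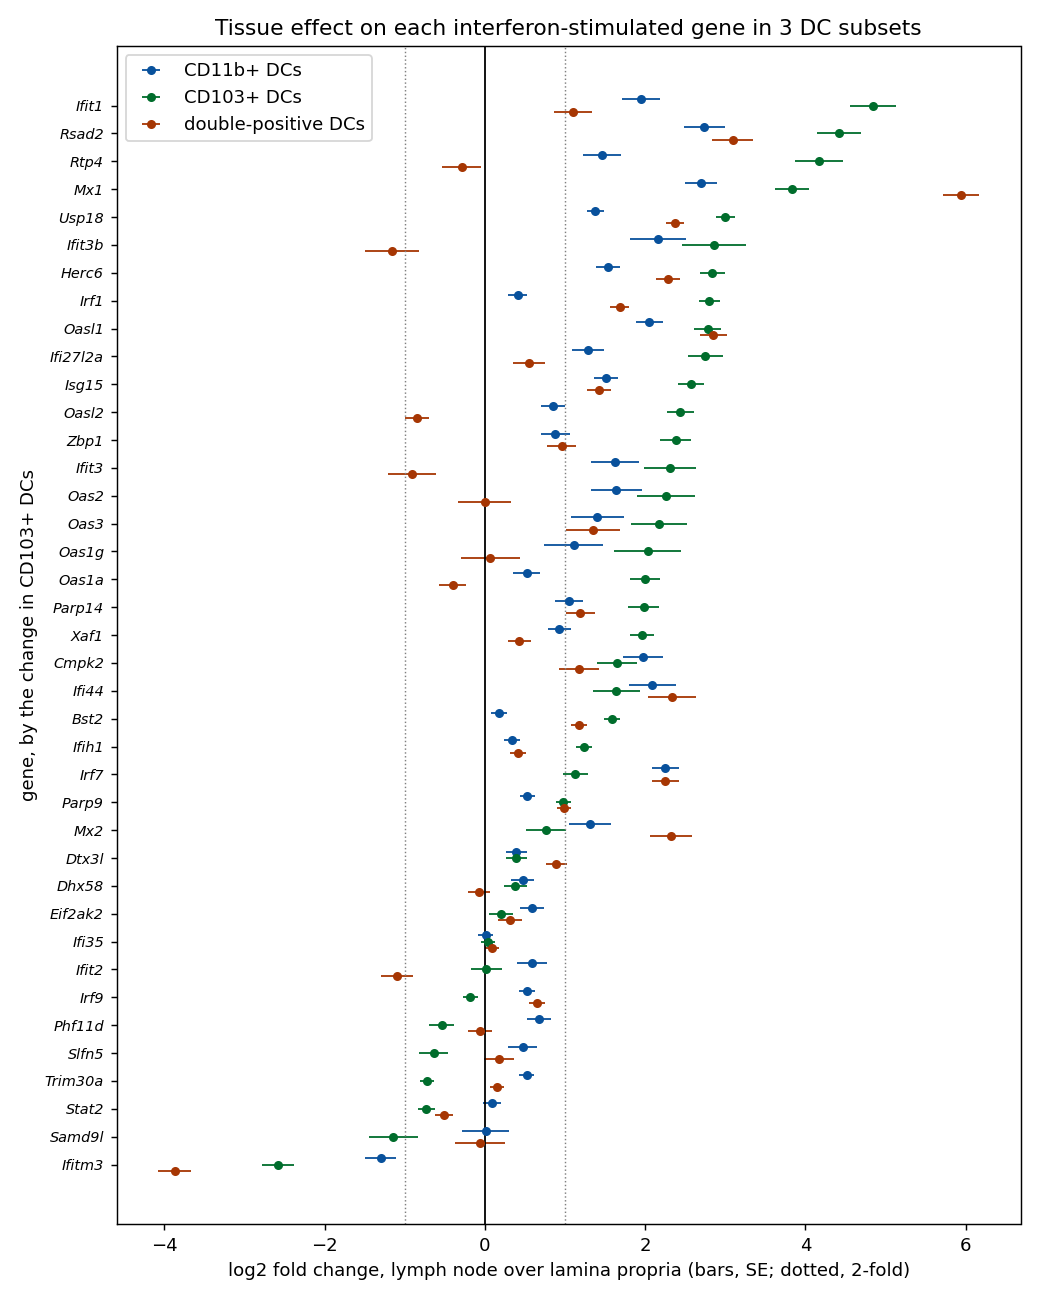
Log2 fold change of each member between LN and LP (points, with SE bars) in CD11b+ (blue), CD103+ (green) and double-positive (brown) DCs, with dotted lines at a 2-fold change. Most points lie right of 0, Mx1 reaches 5.94 in double-positive DCs and Ifit1 4.84 in CD103+ DCs, and Ifitm3 lies left of 0 in all 3 subsets.

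Higher in LN in all 3 subsets were 12 members (7.21% of all genes were), namely Irf7, Ifit1, Oas3, Oasl1, Mx1, Isg15, Usp18, Herc6, Rsad2, Cmpk2, Parp14 and Ifi44. With library totals, Irf7 in CD103+ DCs (log2 0.91) and Ifit1 and Cmpk2 in double-positive DCs (0.93 and 1.00) lost their calls and left this group, and Bst2 in double-positive DCs (1.00) lost its call. Ifitm3 alone was lower in all 3 (2.40% of all genes). Markers of other cells moved with tissue too. The 10 T cell genes summed to 552 to 982 CPM in the LN libraries and 8.16 to 46.5 in the LP libraries, all 10 averaged at least 10 CPM in each LN group, and Cd3e was 23.8 to 70.6 CPM in LN. The 10 genes of DC maturation, such as Ccr7 and Cd40, summed to 4360 to 28800 CPM in LN and 1080 to 2920 in LP. Of these, Cd80 and Cd86 did not rise in every subset, whereas the rest had higher means in LN throughout. Cd86 averaged 557 CPM in LP and 148 in LN CD103+ DCs, and Cd80 36.6 in LP and 17.4 in LN double-positive DCs. The 8 epithelial genes summed to 24.7 to 65.4 CPM in LN and 56.7 to 839 in LP. The 8 genes of plasmacytoid DCs summed to 165 to 279 CPM in LN and 73.7 to 207 in LP. Their defining marker Siglech was at 3.73 to 7.36 CPM in LP and 14.1 to 18.3 in LN CD11b+ DCs. In CD103+ DCs it was at 0.283 to 0.688 CPM in LP and 0.332 to 0.506 in LN. Genes of this list moved in both directions. Ccr9 averaged 127 CPM in LP and 26.1 in LN CD103+ DCs, and Spib 0.481 in LP and 85.5 in LN CD103+ DCs. The part of these cells in the tissue effects was not tested.

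Among the transcription factors, Irf1 and Irf7 were called higher in LN, whereas Stat2 and Irf9, the ISGF3 subunits of the list, were called in no subset. Irf1 had 274, 236 and 220 CPM in LP CD11b+, 243, 265 and 187 in LP CD103+ and 368, 351 and 313 in LP double-positive libraries. The LN values were 282, 341 and 348 CPM in CD11b+, 1570, 1670 and 1620 in CD103+ and 1050, 1080 and 1180 in double-positive libraries. The CD103+ and double-positive LN libraries were far above all others, and those of LN CD11b+ DCs overlapped with the LP libraries. Irf1, a factor induced strongly by interferon gamma as well as by type I interferon, was 6.98-fold higher in LN CD103+ than in LP CD103+ DCs (log2 2.80 ± 0.13 SE, adjusted p = 1.2e-11, edgeR) and 3.20-fold higher in double-positive DCs (log2 1.68 ± 0.12, adjusted p = 5.7e-09).

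Irf7, the regulator that amplifies interferon production, followed another order. It had 61.8, 79.1 and 47.5 CPM in LP CD11b+, 80.1, 80.0 and 84.7 in LP CD103+ and 21.8, 22.5 and 20.3 in LP double-positive libraries. LN libraries had 272, 315 and 310 CPM in CD11b+, 165, 203 and 169 in CD103+ and 81.7, 128 and 96.7 in double-positive libraries. It was lowest in double-positive DCs of each tissue, and LN exceeded LP within every subset, with folds of 4.77 for CD11b+, 2.20 for CD103+ and 4.74 for double-positive DCs (adjusted p at most 1.3e-05). Stat2 had 90.4, 79.0 and 87.9 CPM in LP CD11b+, 158, 147 and 170 in LP CD103+ and 123, 111 and 116 in LP double-positive libraries. In LN it was at 82.5, 91.2 and 100 CPM in CD11b+, 96.3, 110 and 81.0 in CD103+ and 75.2, 81.0 and 88.9 in double-positive libraries, so its highest levels were in LP CD103+ DCs. Irf9 had 106, 114 and 105 CPM in LP CD11b+, 142, 151 and 155 in LP CD103+ and 81.8, 95.5 and 80.5 in LP double-positive libraries. In LN it lay between 121 and 179 CPM in all 9 libraries, and the CD103+ range overlapped with both others.

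The Mx GTPases block viruses in the nucleus or cytoplasm, although C57BL/6 mice, like most inbred strains, carry a defective Mx1 allele. Mx1 (chromosome 16, 97447035 to 97462907, minus strand) showed the largest tissue effect of the list in double-positive DCs. It had 12.6, 15.3 and 12.7 CPM in LP CD11b+, 24.0, 16.0 and 23.3 in LP CD103+ and 8.87, 7.79 and 5.53 in LP double-positive libraries. Among LN libraries it reached 67.5, 92.7 and 104 CPM in CD11b+, 291, 293 and 313 in CD103+ and 479, 362 and 521 in double-positive libraries. All 9 LN libraries were above all 9 LP libraries, and double-positive DCs had the lowest level in LP and the highest in LN. CD11b+ DCs changed 6.50-fold, CD103+ DCs 14.2-fold and double-positive DCs 61.3-fold (log2 2.70 ± 0.20, 3.83 ± 0.21 and 5.94 ± 0.23, adjusted p at most 3.4e-08). Mx2 was called higher in LN CD11b+ and double-positive DCs, with means of 10.5 ± 0.789 (SD, n = 3) against 4.22 ± 1.38 CPM and 14.4 ± 1.08 against 2.87 ± 0.810 CPM.

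The ISG15 system rose as a group. Isg15, a ubiquitin-like modifier, Usp18, which removes it and dampens receptor signalling, and Herc6, its ligase in mice, were called higher in LN in all 3 subsets. Usp18 had 70.2, 78.4 and 84.4 CPM in LP CD11b+, 57.9, 60.2 and 61.3 in LP CD103+ and 107, 115 and 129 in LP double-positive libraries. For LN the values were 171, 214 and 223 CPM in CD11b+, 425, 516 and 497 in CD103+ and 551, 648 and 617 in double-positive libraries, and every LN library was above every LP library. Its fold changes were 2.61, 8.02 and 5.17 in CD11b+, CD103+ and double-positive DCs. Isg15 changed by 2.85-fold, 5.94-fold and 2.68-fold, and Herc6 by 2.91-fold, 7.17-fold and 4.88-fold, in the same order.

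Rsad2, which encodes viperin, and its neighbour Cmpk2 on chromosome 12, a nucleotide kinase, were also called in all 3 subsets. Rsad2 was the gene with the largest rise in CD11b+ DCs, from 9.94 ± 1.35 CPM in LP to 66.6 ± 11.7 in LN (SD, n = 3). It rose from 3.07 ± 1.06 to 64.3 ± 12.0 CPM in CD103+ and from 7.40 ± 2.39 to 63.0 ± 10.1 in double-positive DCs. The 3 subsets thus had like levels in LN and unlike levels in LP, with fold changes of 6.70, 21.4 and 8.51. Cmpk2 rose by 3.91-fold, 3.14-fold and 2.25-fold.

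**Figure D4:**
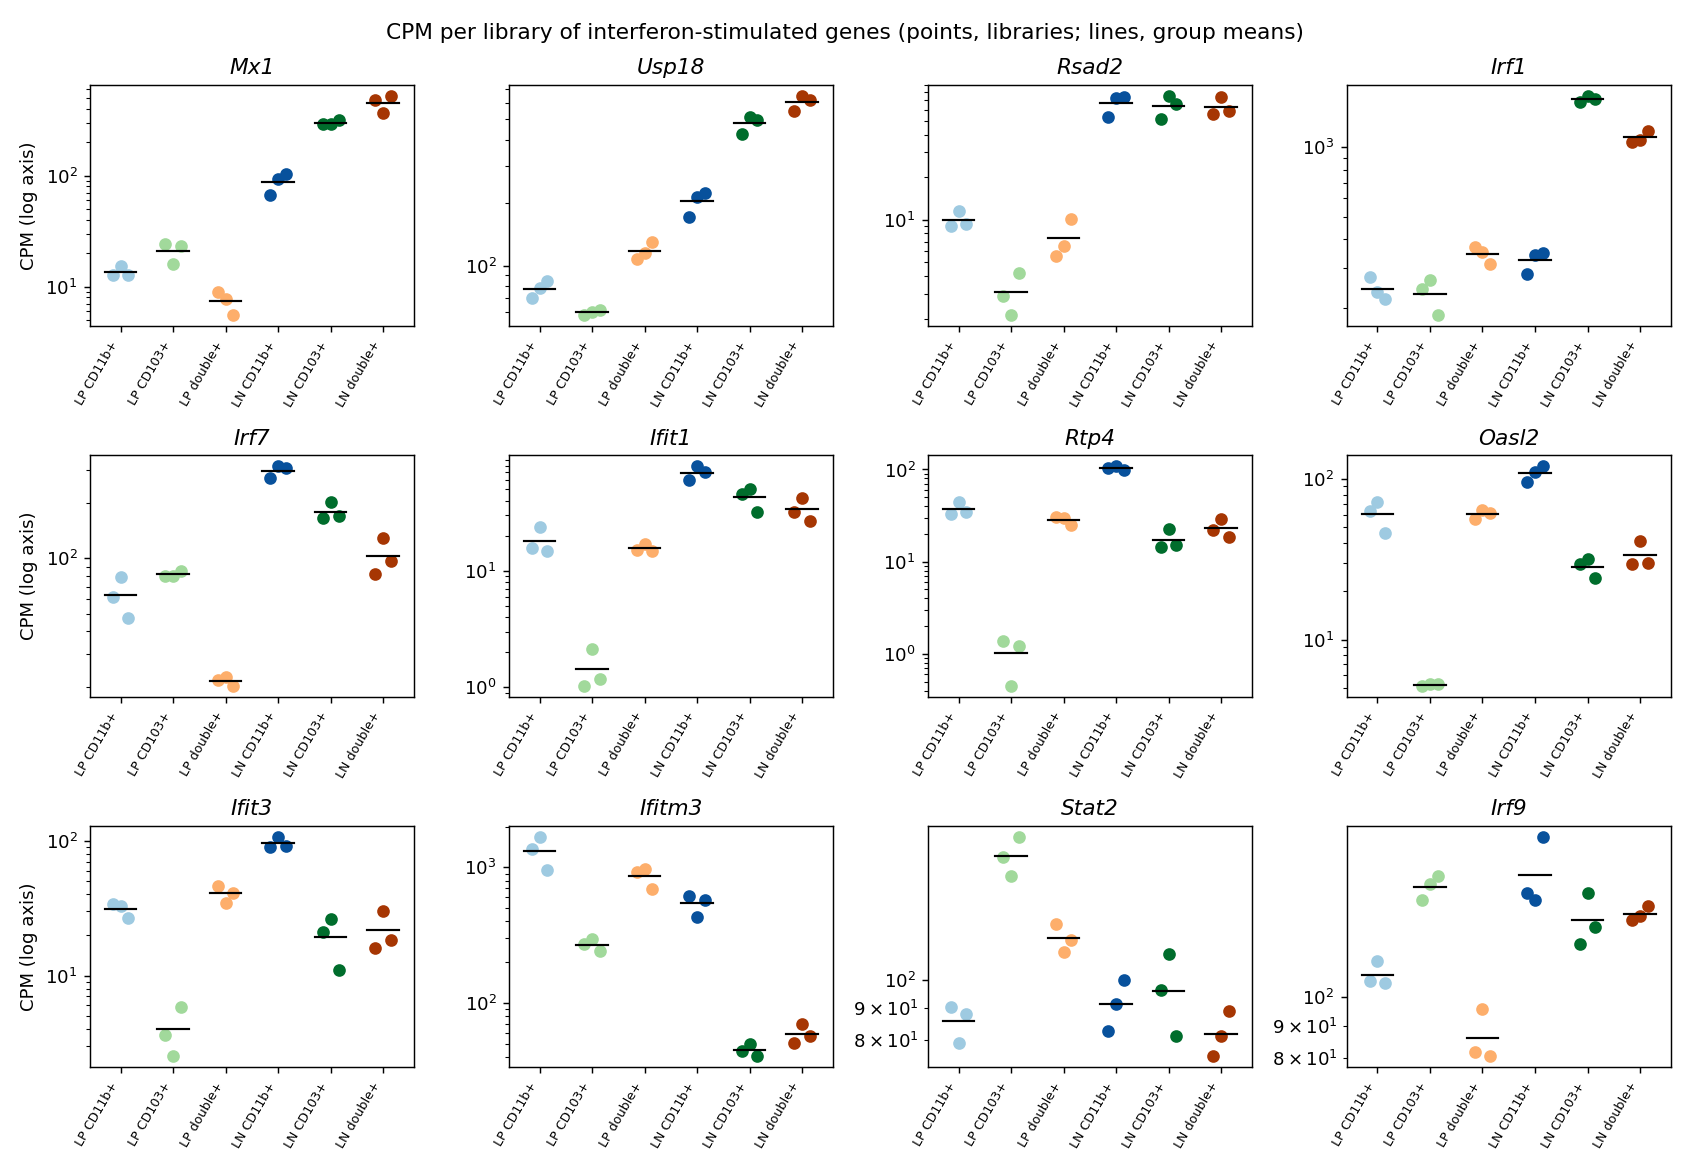
CPM on a log axis in each library (points) with group means (lines) for 12 of the members, with LP groups in pale and LN groups in dark colours. Mx1 and Usp18 are above all LP libraries in all 9 LN libraries, LP CD103+ DCs stand apart at the bottom for Ifit1, Rtp4, Oasl2 and Ifit3, and Ifitm3 is lowest in LN CD103+ and double-positive DCs.

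The IFIT family, RNA-binding proteins that restrain translation of foreign RNA, gave no common pattern. Ifit1 (chromosome 19, 34640871 to 34650009) had 15.6, 23.7 and 14.8 CPM in LP CD11b+, 1.03, 2.11 and 1.18 in LP CD103+ and 15.2, 17.1 and 14.8 in LP double-positive libraries. The LN libraries held 60.5, 78.8 and 70.1 CPM in CD11b+, 45.9, 50.8 and 31.7 in CD103+ and 32.2, 42.3 and 26.8 in double-positive libraries. All LN libraries were above all LP libraries, and LP CD103+ DCs stood far below the rest, which gave the largest rise of CD103+ DCs, 28.6-fold (log2 4.84 ± 0.29, adjusted p = 3.3e-10). Its 2.15-fold rise in double-positive DCs fell under the fold limit without LN double-positive replicate 2 (log2 0.90). Ifit3 rose 3.08-fold in CD11b+ and 4.94-fold in CD103+ DCs and was not called in double-positive DCs, at 21.7 ± 7.58 CPM in LN and 40.7 ± 5.86 in LP. Ifit3b was called in opposite directions, 4.46-fold and 7.24-fold higher in LN CD11b+ and CD103+ DCs and 2.23-fold lower in LN double-positive DCs (log2 -1.16 ± 0.34, adjusted p = 0.0080). That fall lost its call when any of LP CD11b+ replicate 1, LP CD103+ replicate 1, LP double-positive replicates 1, 2 or 3, or LN double-positive replicates 1 or 3 was left out (log2 between -1.28 and -1.01, adjusted p at most 0.039), and also without the 2 libraries with both sex-linked transcripts (adjusted p = 0.051). Ifit2 was 2.13-fold lower in LN double-positive DCs (22.9 ± 6.51 against 48.8 ± 7.22 CPM) and fell below the fold limit without LP double-positive replicate 1 or LN double-positive replicate 1 (log2 -0.97 and -0.89).

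Of the OAS family, enzymes that sense double-stranded RNA and activate RNase L, and their OAS-like relatives, all 6 were called higher in LN CD103+ DCs, 3 in CD11b+ and 2 in double-positive DCs, against 19.8%, 10.3% and 18.6% of all genes. Oasl2 (chromosome 5, 114896936 to 114912234) had the smallest p of the list for a tissue effect that differs between subsets. It had 63.4, 71.7 and 46.0 CPM in LP CD11b+, 5.16, 5.27 and 5.30 in LP CD103+ and 56.5, 64.2 and 61.1 in LP double-positive libraries. Values in LN were 96.3, 110 and 120 CPM in CD11b+, 29.5, 31.6 and 24.2 in CD103+ and 29.7, 40.9 and 30.1 in double-positive libraries. Its level was above LP in LN CD103+ libraries and below LP in LN double-positive libraries, with log2 fold changes of 2.44 ± 0.17 (called) and -0.85 ± 0.15 (under the fold limit). Oas1a had 47.4, 51.9 and 62.9 CPM in LP CD11b+, 3.89, 3.96 and 6.89 in LP CD103+ and 62.0, 60.4 and 60.9 in LP double-positive libraries. In LN it had 73.9, 74.8 and 83.8 CPM in CD11b+, 16.0, 21.4 and 20.7 in CD103+ and 45.3, 53.3 and 39.8 in double-positive libraries, so CD103+ DCs had the lowest levels in both tissues. Oasl1, an OAS-like protein known to restrain translation of Irf7, ran the other way between subsets, with means of 34.2 ± 5.32 CPM in LP CD103+ and 235 ± 17.9 in LN CD103+ DCs against 5.99 ± 1.01 and 24.7 ± 3.44 in CD11b+ DCs. It rose 7.22-fold in double-positive DCs. Oas3 was called in all 3 subsets, but its call in CD11b+ DCs was lost without LP CD11b+ replicate 1 or 3 or LN CD11b+ replicate 2 or 3 (log2 1.23 to 1.35), and its call in double-positive DCs without LP double-positive replicate 1 or 3 or LN double-positive replicate 2 (log2 1.19 to 1.22). Both calls were also lost without the 2 libraries with both sex-linked transcripts (log2 1.35 and 1.32).

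Membrane restriction factors split. Bst2, or tetherin, which holds budding virions on the cell, had 115, 113 and 116 CPM in LP CD11b+, 94.5, 87.8 and 87.4 in LP CD103+ and 79.8, 86.6 and 64.1 in LP double-positive libraries. In LN it had 119, 134 and 136 CPM in CD11b+, 262, 244 and 304 in CD103+ and 175, 174 and 169 in double-positive libraries, and it was called higher in the latter pair of subsets (3.01-fold and 2.25-fold). Ifitm3, which blocks viral fusion in endosomes, had the highest RPKM of the list. Its values were 1360, 1680 and 955 CPM in LP CD11b+, 270, 294 and 243 in LP CD103+ and 918, 975 and 698 in LP double-positive libraries. In LN it had 620, 427 and 579 CPM in CD11b+, 44.3, 49.9 and 40.4 in CD103+ and 51.0, 69.7 and 56.5 in double-positive libraries. It was 2.46-fold, 5.99-fold and 14.6-fold lower in LN CD11b+, CD103+ and double-positive DCs (log2 -1.30 ± 0.19, -2.58 ± 0.20 and -3.87 ± 0.21, adjusted p at most 5.3e-05). Macrophage and monocyte genes, 10 in all, summed to 732 to 1600 CPM in LP CD11b+ and 322 to 370 in LP double-positive DCs. The sums were 393 to 582 in LN CD11b+, 108 to 115 in LN double-positive and 39.4 to 58.7 in CD103+ DCs of both tissues. Fcgr1 was at 0 in every LN CD103+ library. Not every gene of the list fell. Ly6c2 averaged 14.0, 0.840 and 0.530 CPM in LP CD11b+, CD103+ and double-positive DCs, and 57.6, 34.0 and 21.0 in LN. Adgre1 and Cx3cr1 had higher means in LN than in LP CD11b+ DCs. The part of macrophages and monocytes in the level of Ifitm3 was not tested.

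Of the nucleic acid sensors, Ifih1 and Zbp1 were called, both in CD103+ DCs alone, with Zbp1 just under the fold limit in CD11b+ and double-positive DCs (log2 0.88 and 0.96). Ifih1, which encodes the RNA sensor MDA5, and Zbp1, a sensor of Z-form nucleic acid, were higher in LN CD103+ DCs, at 57.5 ± 5.45 against 24.4 ± 2.66 CPM and 63.6 ± 9.40 against 12.2 ± 2.85 CPM. For both, the effect differed between CD103+ and each other subset when that difference was tested (adjusted p at most 6.2e-04). Dhx58 (LGP2) and Eif2ak2, the kinase PKR, were called in no subset. Of the PARP group, Parp14 was called in all 3 subsets (2.06-fold, 3.94-fold and 2.28-fold). The first of these calls was lost without LP CD11b+ replicate 1 or LN CD11b+ replicate 2 (log2 0.87 and 0.96). Parp9 and its partner Dtx3l were called in none. Parp9 was just under the fold limit in CD103+ and double-positive DCs (log2 0.98 ± 0.09 and 0.99 ± 0.09), as was Dtx3l in double-positive DCs (0.89 ± 0.13).

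Of the remaining members, Rtp4, a Golgi chaperone of receptors that restrains interferon responses, varied most. It had 33.1, 44.2 and 35.0 CPM in LP CD11b+, 1.38, 0.452 and 1.22 in LP CD103+ and 30.3, 29.6 and 24.8 in LP double-positive libraries. In LN it had 103, 108 and 98.6 CPM in CD11b+, 14.4, 22.4 and 15.1 in CD103+ and 22.1, 28.9 and 18.4 in double-positive libraries. The tissue effect was 2.75-fold in CD11b+ DCs, log2 4.17 ± 0.30 in CD103+ DCs (adjusted p = 3.6e-09), and not called in double-positive DCs (log2 -0.29 ± 0.24). Trim30a, a TRIM protein that restrains inflammatory signalling, had 152, 151 and 149 CPM in LP CD103+ libraries and 59.5 to 121 in the other 15, with tissue effects of log2 0.52, -0.72 and 0.15 in CD11b+, CD103+ and double-positive DCs, none of them past the fold limit. Ifi27l2a rose 2.45-fold in CD11b+ and 6.73-fold in CD103+ DCs, and Xaf1 rose 3.89-fold in CD103+ DCs. Ifi44 rose in all 3 subsets by 4.27-fold, 3.11-fold and 5.04-fold. Samd9l was 2.21-fold lower in LN CD103+ DCs (16.0 ± 5.85 against 35.4 ± 14.7 CPM), a call that was lost without LP CD103+ replicate 1 or 2 or LN CD103+ replicate 2 or 3 (log2 -1.19 to -0.85) and in a fit of those 6 libraries alone. Ifi35, Phf11d and Slfn5 were called in none.

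Whether the tissue effect of a member differed between subsets was tested directly. It did for 28 of the 39 members (71.8%) at an adjusted p under 0.01 with no fold limit, where 31.5% of all genes did, and for 24 without the 2 libraries with both sex-linked transcripts. The smallest adjusted p was that of Oasl2 (4.3e-08), followed by Irf1 (6.6e-08), Mx1 (3.9e-07), Rtp4 (4.5e-07) and Ifit1 (1.2e-06). For Ifit1 and Rtp4 the effect was larger in CD103+ than in CD11b+ DCs by log2 2.89 ± 0.36 and 2.71 ± 0.38, and for Irf1 by 2.39 ± 0.17. For Mx1 it was larger in double-positive than in CD103+ DCs by log2 2.11 ± 0.27 (adjusted p = 3.2e-05). For Irf7, the effect in CD103+ DCs was smaller than in CD11b+ DCs by log2 -1.12 ± 0.23 and did not pass for double-positive against CD11b+ DCs (-0.01 ± 0.24).

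Subsets were then compared within each tissue. In LP, CD103+ DCs were lower than CD11b+ DCs in 15 members and higher in 1, against 10.6% and 5.07% of all genes, and the median log2 fold change was -0.56 in the members and -0.04 in all genes. Rtp4 was 38.9-fold lower, Ifit1 12.1-fold, Oasl2 11.5-fold, Oas1a 11.1-fold, Ifit3b 11.0-fold and Oas2 10.2-fold, whereas Oasl1 was 5.73-fold higher (adjusted p at most 2.8e-06). The lower level of Samd9l (2.32-fold) was among the 15 and lost its call without LP CD103+ replicate 2 or 3 or LP CD11b+ replicate 1 or 2 (log2 -1.26 to -0.92). Double-positive DCs were higher than CD103+ DCs in 16 members and lower in 7, against 8.10% and 5.52% of all genes. The 7 were Irf7, Oasl1, Mx1, Mx2, Ifi44, Trim30a and Slfn5. The calls of Mx2 and Ifi44 were lost when any of several single libraries was left out (Mx2 without LP CD103+ replicate 1 or 3 or LP double-positive replicate 1 or 3, log2 -0.98 to -0.90, and Ifi44 without any of 10 libraries, log2 -1.13 to -0.88) and with the replicate block in the LP libraries alone (adjusted p = 0.023 and 0.03, edgeR). Double-positive and CD11b+ DCs differed least in LP, with 0 higher by edgeR (1.14% of all genes were) and Irf7, Oas3, Ifi44 and Samd9l lower (3.67%). The replicate numbers pair the LP libraries, and with the replicate block in a fit of the LP libraries alone 2 of these 4, Irf7 and Samd9l, were called. Oas3 also lost its call without any of 8 single libraries (log2 -1.48 to -1.07) and Ifi44 without LP CD11b+ replicate 3 or LP double-positive replicate 1 or 2 (log2 -1.34 to -1.01). The median log2 fold changes of these comparisons with double-positive DCs were 0.57 and -0.10. DESeq2 called 0 higher and 5 lower. At an unadjusted p under 0.05 in edgeR, 8 members were higher and 13 lower, against 11.1% and 14.4% of all genes.

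In LN, CD103+ DCs were lower than CD11b+ DCs in 12 members and higher in 5, against 15.6% and 10.2% of all genes. The 5 were Irf1 (5.01-fold), Oasl1 (9.52-fold), Mx1 (3.40-fold), Usp18 (2.37-fold) and Bst2 (2.08-fold, under the fold limit without LN CD103+ replicate 3 or LN CD11b+ replicate 1, log2 0.95 and 0.96), and Ifitm3 was 12.1-fold, Ifit3b 6.77-fold and Oas2 6.67-fold lower. Scaling by library totals, which lowered the median of all genes by a further 0.43 (log2), gave 19 lower and 3 higher, without Usp18 (log2 0.81) and Bst2 (0.63), so that 13.6% of the called members were higher in place of 29.4%. Double-positive DCs were lower than CD11b+ DCs in 15 members and higher in 4, against 9.82% and 6.92%. The 4 were Irf1, Oasl1, Mx1 and Usp18. With library totals 3 were higher and 19 lower, and Oasl1 lost its call (log2 0.87). Double-positive and CD103+ DCs differed in 3 members, with Oas1a (2.38-fold) and Phf11d (2.27-fold) higher in double-positive DCs and Oasl1 4.01-fold lower, against 4.69% and 1.84% of all genes. Leaving out LN CD103+ replicate 1 left 1 member higher, Oas1a, with Phf11d at log2 0.99. The median log2 fold changes in LN were -0.52, -0.54 and 0.10, where those of all genes were -0.13, -0.08 and 0.01. The comparisons within a tissue share libraries, so their counts are not independent.

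**Figure D5:**
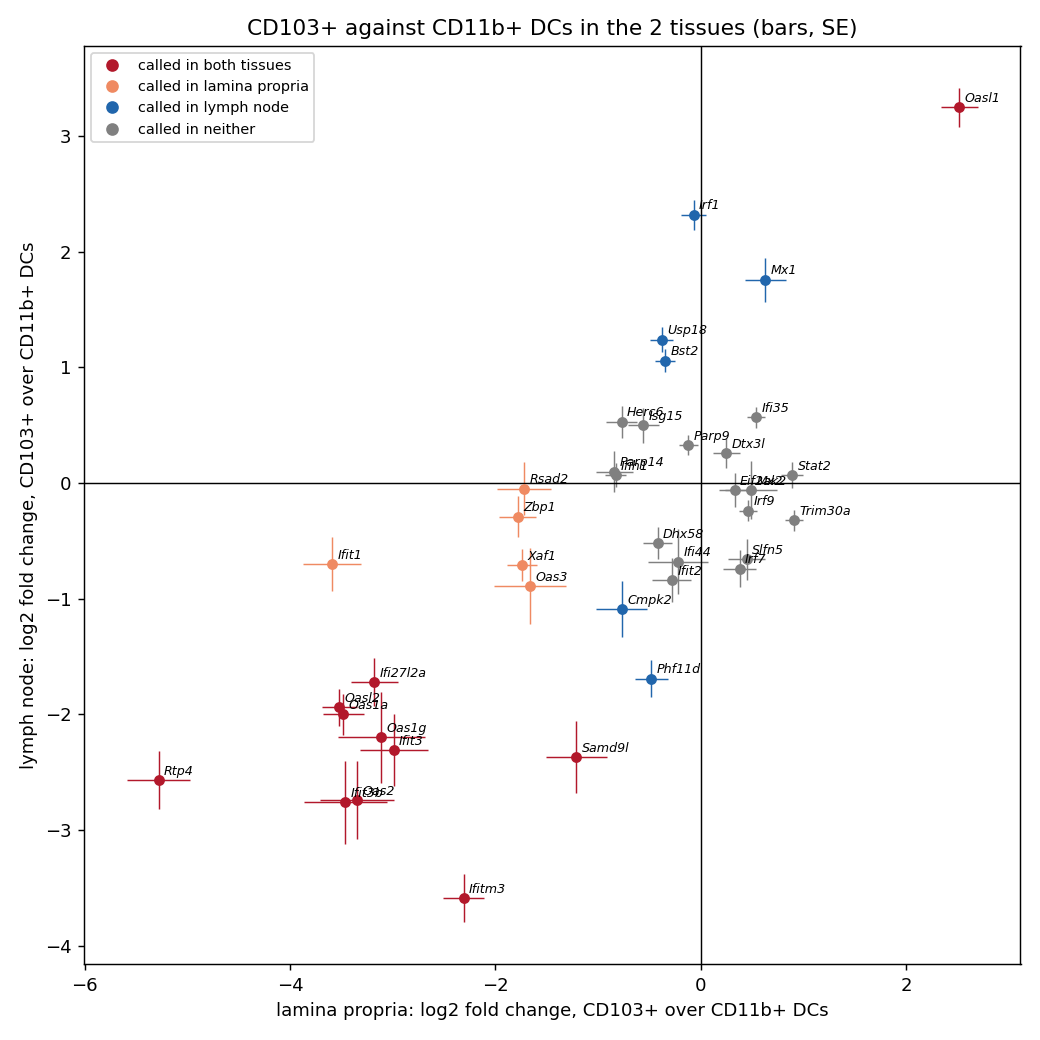
Log2 fold change of each member between CD103+ and CD11b+ DCs in LP (horizontal) and LN (vertical), with SE bars and colours for the tissues in which it was called. Rtp4 and Ifitm3 are lower and Oasl1 is higher in CD103+ DCs of both tissues, and Irf1, Mx1, Usp18 and Bst2 are higher in LN only by the call.

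Other genes of the interferon pathway were taken as a list of 45, of which 37 were tested. Of these, CD11b+ DCs had 6 higher and 1 lower in LN than in LP, CD103+ DCs 14 and 5, and double-positive DCs 15 and 4, where the shares of all genes were 10.3% and 4.93%, 19.8% and 15.1%, and 18.6% and 13.6%. The type I ligands on the list were at or near 0, with at most 11 reads of Ifna2 and 5 of Ifnb1 in any library and none of Ifna1 or Ifne. Of the Ifna genes, only Ifna1, Ifna2, Ifna4 and Ifna5 were on the list. Reads that fit 2 genes are lost under unique alignment, and sequence shared among the ligand genes was not measured. Low counts thus do not show that these ligands were absent, and their presence in rare cells was not detectable at this depth. Ifnl3, a type III interferon, was at 2.11 to 3.64 CPM in LN CD103+ libraries and at 0 to 0.977 in all others. Ifng was at 3.35 to 10.6 CPM in LN CD11b+, 1.10 to 2.45 in LN CD103+ and 2.47 to 2.73 in LN double-positive libraries and at 0 to 0.395 in LP, and it was called higher in LN in all 3 subsets, as the T cell genes were higher. The T cells' part in it was not tested.

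The receptor and signalling genes did not all move one way. Of 6 receptor genes, none was called in CD11b+ DCs. Il10rb was called higher in LN CD103+ and double-positive DCs, and Ifnlr1 in LN double-positive DCs, at a mean of 1.06 CPM against 0 in LP. Ifnar2 was called in no subset, and Ifnar1 was lower in LN CD103+ DCs (94.7 ± 9.10 against 192 ± 10.2 CPM). Ifngr1, which encodes the ligand-binding chain of the interferon gamma receptor, was lower in LN CD103+ and double-positive DCs, at 155 ± 3.64 against 1220 ± 73.1 CPM and 203 ± 16.0 against 457 ± 31.2 CPM. Of the 5 kinases and STATs, none was called in CD11b+ DCs and none was called lower in LN in any subset. Stat3 and Jak2 were higher in LN CD103+ and double-positive DCs and Tyk2 in double-positive DCs. Among 11 sensors and adaptors, Ddx58, which encodes RIG-I, was at 1.37 ± 0.363 CPM in LP CD103+ DCs against 43.4 ± 5.49 in LP CD11b+ and 44.6 ± 4.72 in LP double-positive DCs, and at 17.2 ± 5.32 in LN CD103+ DCs (log2 3.63 ± 0.22 above LP, adjusted p = 4.1e-10). Tlr3, which senses double-stranded RNA in endosomes and marks type 1 DCs, had 958 ± 24.7 CPM in LP CD103+ and 8.65 ± 1.90 in LN CD103+ DCs. The inhibitor Socs1 and Nlrc5, a regulator of MHC class I genes, were called higher in LN in all 3 subsets, with Socs1 at 8.53 to 21.7 CPM over the LP libraries and 49.3 to 81.0 over the LN libraries. Socs3 was lower in LN CD11b+ and double-positive DCs.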

How the data were processed

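The authors deposited raw read counts per gene for 18 libraries, without normalisation, listed by Ensembl identifier. Per the labels, FastQC 0.11.7, STAR 2.6 and GRCm38 were used. The study's methods, for its own DC libraries, give Smart-seq amplification, unique alignments only and counting without strand, so reads of near-identical genes are lost and overlapping genes are not separated. Symbols were matched for 54079 of 54232 identifiers, and gene positions come from GENCODE vM21 (GRCm38).

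All 18 libraries entered 1 edgeR 4.0.16 fit (R 4.3.3) with TMM scaling, filterByExpr by group, a mean per group and quasi-likelihood tests, adjusted over 17074 genes by Benjamini-Hochberg. Standard errors came from the F statistic. Calls needed an adjusted p under 0.01 and a fold change over 2, and the test of differing tissue effects had no fold limit. The fit was tested on simulated counts. Totals were between 23574292 and 46901985. The chi-square per gene between replicates was 14.9 to 64.9, so all libraries were counted as separate. Nothing says that replicates came from separate animals, so p-values measure the spread between these libraries.

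Replicate numbers come from the labels. Same-numbered LP libraries deviated together (r between 0.123 and 0.281 for all 9 pairs, over genes). Same-numbered LN pairs were all above 0 but weaker (0.0111 to 0.169, median 0.0586). Differently numbered LN pairs lay at -0.0939 to 0.0347, with a median of -0.0333. Between tissues, same-numbered pairs lay at -0.119 to 0.0722. The numbers thus pair the LP libraries, and a weaker pairing of the LN libraries is not excluded.

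The members, pathway genes and marker lists were chosen with earlier results of these data known. Members were named with values as the 3 largest rises and falls among called members per tissue comparison, and given per library for the 10 with the smallest p of a differing tissue effect and for Irf1, Irf7, Irf9 and Stat2. Other members and pathway genes were named as examples. A gene of the pathway list is counted but not reported here. Promoters are RefSeq windows. Alternatives were DESeq2 1.42.0, its size factors, library totals, no filter, at least 100 counts in 3 libraries, an adjusted p under 0.05, no fold limit, the 6 libraries compared alone, the replicate block over all libraries or within tissue, and libraries left out. A block fit of the LP libraries alone was added after the data were seen.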

Additional observations from a re-analysis of the deposited data

Results flagged for a closer look

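The 28 members listed here are those whose tissue effect differed between DC subsets by the F test of that difference itself, with its adjusted p in parentheses (edgeR, adjusted over 17074 genes). The change from LP to LN was larger in CD103+ DCs than in each other subset, with both differences past an adjusted p under 0.01, for Oasl2 (4.3e-08), Irf1 (6.6e-08), Rtp4 (4.5e-07), Ifit1 (1.2e-06), Usp18 (1.4e-06), Oas1a (4.9e-06), Xaf1 (4.8e-05), Ifi27l2a (5.0e-05), Ifih1 (7.2e-05), Zbp1 (1.8e-04) and Isg15 (4.5e-04). It was higher in CD11b+ and CD103+ than in double-positive DCs by the same test for Ifit3b (1.6e-05), Ifit3 (3.4e-05) and Ifit2 (3.4e-04). It was lower in CD103+ than in both other subsets for Trim30a (3.4e-06), Irf9 (1.8e-04) and Irf7 (8.9e-04). It was lower in CD11b+ than in both other subsets for Bst2 (1.7e-06) and Parp9 (0.0070). In double-positive DCs it was larger than in both others for Mx1 (3.9e-07). In CD11b+ DCs it stood above both others for Ifitm3 (4.4e-06) and Stat2 (7.9e-04). For the rest, a single pair of subsets differed by this test, with CD103+ above CD11b+ DCs for Herc6 (2.9e-04) and Rsad2 (0.0020). CD103+ DCs were below CD11b+ DCs for Phf11d (9.1e-04) and Slfn5 (0.0054). Double-positive DCs were below CD103+ DCs for Oas2 (0.0026). They were above CD103+ DCs for Mx2 (0.0060). Ifitm3 was lower in LN in each subset. Ifit3b was called higher in LN in CD11b+ and CD103+ DCs and lower in double-positive DCs. With 3 libraries a group, no test of single outlying libraries was made.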

How the results depend on the processing

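No called member value turned its sign under any alternative. Of 146 called values in the 9 comparisons, 118 kept their call under every alternative and 28 lost it under at least 1, and of 205 values not called, 39 turned their sign under at least 1 and 27 passed the call under at least 1 with the thresholds kept. With library totals, double-positive DCs had 5 members lower in LN (3 with TMM), and LN CD103+ against CD11b+ DCs had 3 higher and 19 lower (5 and 12). With no fold limit, members lower in LN were 6 in CD103+ and 5 in double-positive DCs, CD103+ against CD11b+ DCs had 5 higher in LP and 9 higher in LN, double-positive against CD11b+ DCs had 2 higher and 7 lower in LP and 11 higher in LN, and double-positive against CD103+ DCs had 4 lower in LN. Pathway genes were then 16 higher and 5 lower in CD11b+, 8 lower in CD103+ and 7 lower in double-positive DCs. In fits of the 6 libraries alone, 1 member was lower in LN CD103+ DCs and 2 in LP double-positive against CD11b+ DCs. The replicate block in the LP libraries alone gave 2 lower in that last comparison, and the paired fits, over all libraries, within tissue or in LP, moved no other count of members by over 1.5 times. The count of members whose tissue effect differed was 29 with the replicate block over all libraries and 30 with it within tissue. With libraries left out, members lower in LN were 1 at fewest in CD103+ and 1 to 5 in double-positive DCs, where the 1 came without LP or LN double-positive replicate 1 and the 5 without LN double-positive replicate 2. Members higher in LN double-positive than LN CD103+ DCs were 1 without LN CD103+ replicate 1, and members lower in LP double-positive than LP CD11b+ DCs were 2 without LN CD11b+ replicate 3 and LN double-positive replicate 3. The causes were not tested. Depth limits Oas1g, Oas2 and Ifit3b, whose lowest libraries held 17, 16 and 12 reads. Rtp4, Ifi44 and Ifit1 were also low, with 21, 21 and 29 reads in their lowest libraries. The large folds of Rtp4 and Ifit1 against LP CD103+ DCs rest on means of 1.02 and 1.44 CPM there.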

Other observations

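Libraries of a group were not equally alike for every member. Ifit3b had 6.51, 5.06 and 1.67 CPM and Ifit3 20.9, 26.2 and 11.0 CPM in the LN CD103+ libraries, and Samd9l had 48.8, 37.7 and 19.7 CPM in the LP CD103+ libraries. Oas1g had 4.24, 3.33 and 9.51 CPM in the LP CD11b+ libraries. Oasl2, by contrast, had 5.16, 5.27 and 5.30 CPM in the LP CD103+ libraries. Among pathway genes that are no members, Ikbke, which encodes a kinase that activates IRF3 and IRF7, averaged 6.02 CPM in LP CD11b+, 0.196 in LP CD103+ and 1.87 in LP double-positive DCs, and 25.9, 14.9 and 17.2 CPM in the same subsets of LN, and it was called higher in LN in all 3. Irf8, the lineage factor of type 1 DCs, was called higher in LN CD11b+ and double-positive DCs and lower in LN CD103+ DCs, with 4650 CPM in LP CD103+ and 1620 in LN CD103+ DCs.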
